A study of Homo sapiens with 4 samples.

Results

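RNA polymerase III (Pol III) transcribes short, structured RNAs that are not translated. The genes described here are RPPH1, RN7SL2, RNY1, RNY3 and VTRNA1-1, in SY5Y neuroblastoma cells treated with SGSS05-NS or with DMSO. They come from a list of 7 abundant Pol III RNA genes, looked up by gene identifier in GENCODE on GRCh37, and 5 of the 7 could be tied to a row among the 57820 gene rows of the counts. RPPH1 had no symbol in the annotation and was matched by position: on GRCh38, the RefSeq interval of RPPH1 lies inside the exon of gene ENSG00000259001. RMRP and RN7SL1 could not be tied to a row through the annotation used here and are not analysed here under those names.

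SY5Y is a human neuroblastoma cell line without MYCN amplification ("MYCN wild type" in the labels). Both groups were the same cells, harvested after 12 h with the solvent DMSO or with SGSS05-NS, with 2 libraries per group that the study describes as independent biological replicates. SGSS05-NS is the name in the labels for a compound studied as an inhibitor of SETD8, the enzyme that monomethylates histone H4 at lysine 20 and also methylates p53. The labels state 3 μM, as does a figure legend of the study for this cell line, while its methods give a lower dose, so the dose is not settled here. The study calls the compound it sequenced SGSS05-NS3, and its discussion also lists an SGSS05-NS among compounds of the same series. Whether the label means SGSS05-NS3 is therefore not settled here.

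Pol III RNAs serve as the RNA part of particles rather than as messages. RPPH1 encodes the catalytic RNA of RNase P, which trims the leader of precursor tRNAs. RN7SL2 encodes 7SL RNA, the scaffold of the signal recognition particle that brings ribosomes to the endoplasmic reticulum. RNY1 and RNY3 encode Y RNAs, which bind the Ro60 and La proteins and are known for roles in RNA quality control and DNA replication. VTRNA1-1 encodes a vault RNA, a part of the vault particle that is also known as a regulator of autophagy. Pol III reaches the vault RNA gene through control elements inside the gene, while the Y RNA and RNase P RNA genes carry theirs upstream of the start.

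The sequences of RNY1 and VTRNA1-1 are shown because RNAs this short are hard to retain in a library, which bears on their counts. They were read from GRCh37 at the annotated positions, 5′ to 3′ on the gene's strand. RNY1 (chr7:148684228-148684340, minus strand, 113 bases) ends in a run of T, in capitals, the signal at which Pol III stops. In the RNA, the first and last parts pair with each other to form the stem of the Y RNA.
RNY1: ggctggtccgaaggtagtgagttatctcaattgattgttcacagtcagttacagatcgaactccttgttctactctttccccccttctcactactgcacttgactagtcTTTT

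VTRNA1-1 (chr5:140090860-140090958, plus strand, 99 bases) is shown with the letters GTTCGANNC in capitals, the core of the B box that binds the Pol III factor TFIIIC. The match starts at base 67 of the gene. On either strand, these letters were found in 0.321% of the first 100 bases of 64476 annotated genes.
VTRNA1-1: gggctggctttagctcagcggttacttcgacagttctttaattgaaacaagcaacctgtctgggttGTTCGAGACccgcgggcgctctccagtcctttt

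The files held between 21463105 and 25350204 fragments on genes per library. Fragments outside annotated exons were 12.3% and 12.4% of all fragments with DMSO and 15.3% and 16.1% with SGSS05-NS, and fragments that mapped to several places were between 14.3% and 15.4%. Of 12 neuroblast markers, 11 had enough counts for the test, and all 11 were lower in both SGSS05-NS libraries than in both DMSO libraries, as 36.9% of all genes tested were, with the sum over the list between 4907 and 5326 CPM with DMSO and between 2916 and 2969 CPM with SGSS05-NS, while TH was nearly absent (2, 2, 1 and 0 fragments in DMSO 1, DMSO 2, SGSS05-NS 1 and SGSS05-NS 2). Mesenchymal markers summed to 218 and 247 CPM with DMSO and 161 and 156 CPM with SGSS05-NS, with PRRX1 at 0. Most of that sum was TWIST1 (means 160 CPM with DMSO and 93.4 CPM with SGSS05-NS) and FN1 (64.7 and 58.1 CPM). Of the 8 tested, 2 had a positive log2 fold change, CD44 (1.41) and COL1A1 (0.41), both with at most 28 fragments per library. The 7 blood and immune markers summed to at most 0.0856 CPM with DMSO and 0.255 CPM with SGSS05-NS, with CD3E and HBB at 0. The part of these markers in the results below was not tested.

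The Y RNA genes RNY1 and RNY3 were lower with SGSS05-NS, at 0.329 and 0.328 times the DMSO level in the fit, whereas RPPH1 and RN7SL2 were not called and VTRNA1-1 was too rare to test. The test was edgeR's quasi-likelihood F-test, and a gene was called at an adjusted p-value (Benjamini-Hochberg over all 16468 genes tested) under 0.001, the study's threshold. Of the 4 listed genes that were tested, 2 were called lower, beside 8.14% of all genes tested, and 0 were called higher, beside 6.37%. The likelihood ratio test of edgeR, DESeq2 and limma voom also called 0 of them higher. At an unadjusted p under 0.05 in the quasi-likelihood test, 2 were higher and 2 lower. At least 22.6% of all genes tested passed that unadjusted limit on the higher side and 23.7% on the lower side. These shares also apply to the unadjusted counts below. At an adjusted p under 0.05 in the quasi-likelihood test, 2 were lower, beside 23.7% of all genes tested, and 0 higher, beside 22.6%. RN7SL2 was higher under 0.05 with the likelihood ratio test (adjusted p = 0.0301), DESeq2 (0.0317) and limma voom (0.0389), while RPPH1 was not. With library-size scaling only, both were under 0.05 (0.0116 for RN7SL2 and 0.0413 for RPPH1, edgeR). The log2 fold changes lay near -1.6 for the Y RNA genes and near 0.3 for RPPH1 and RN7SL2, so their median of -0.64, beside 0.01 for all genes tested, lies at no gene and describes no shared change.

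**Figure D1:**
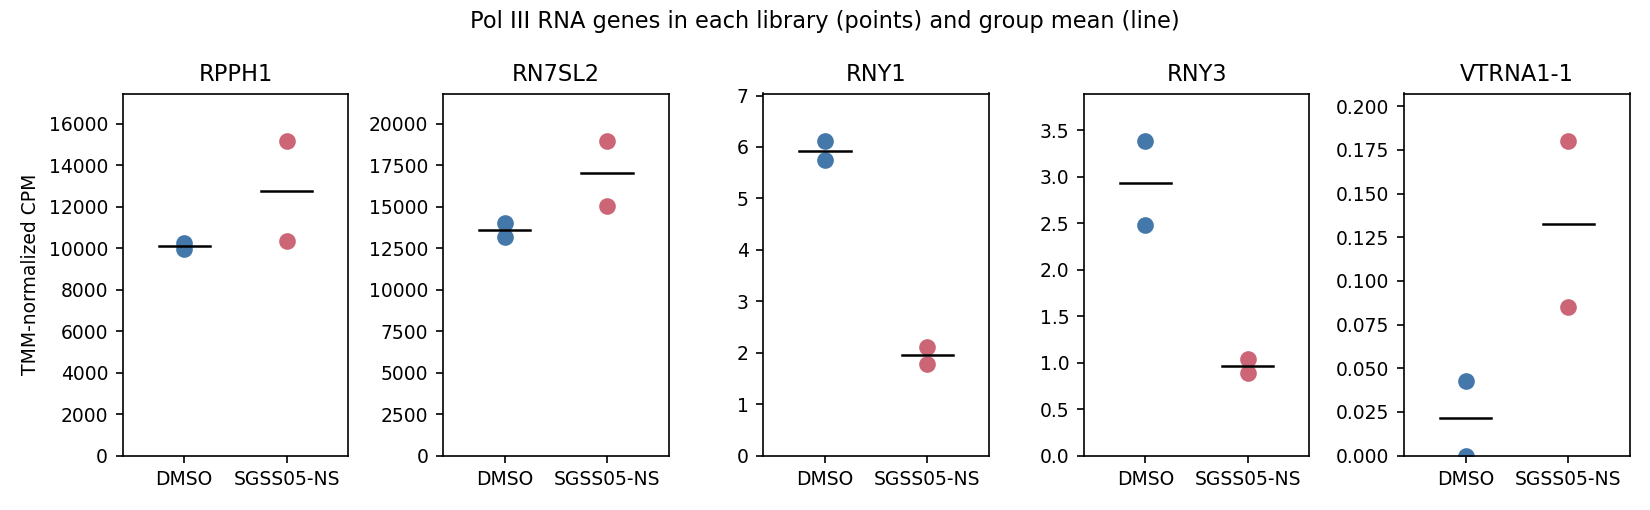
TMM-normalized CPM (vertical axes, each from 0) of the 5 Pol III RNA genes in the 2 DMSO and 2 SGSS05-NS libraries. Points are libraries and lines are group means. RNY1 and RNY3 fell in both treated libraries, and the treated libraries of RPPH1 lay at 10330 and 15170 CPM.

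RNY1, the gene of the longest human Y RNA, was counted 144 and 143 times with DMSO and 47 and 42 times with SGSS05-NS. In CPM (counts scaled to the library size with TMM factors), these were 5.74 and 6.12 with DMSO and 2.12 and 1.79 with SGSS05-NS. The replicates of each group lay close together and the groups did not overlap, as for 36.9% of all genes tested in this direction. From a DMSO mean of 5.93 CPM (± 0.27 SD, n = 2), the level fell to 1.95 CPM (± 0.235 SD, n = 2). On the log2 scale the change was -1.60 ± 0.21 (SE), with an edgeR adjusted p of 8.7e-05. The 4 fits that each lacked a library gave values between -1.74 and -1.48, and RNY1 was called in these fits and in the 12 settings with every library.

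RNY3, its neighbour on the other strand of chromosome 7, had 85 and 58 fragments with DMSO and 23 and 21 with SGSS05-NS. The levels were 3.39 and 2.48 CPM with DMSO and 1.04 and 0.893 CPM with SGSS05-NS. Its DMSO libraries differed from each other by 1.36 times, more than those of RNY1, and both were above both treated libraries. From a DMSO mean of 2.94 CPM (± 0.64 SD, n = 2), the level fell to 0.965 CPM (± 0.101 SD, n = 2). On the log2 scale the change was -1.61 ± 0.28 (SE), with an edgeR adjusted p of 7.3e-04. This call was close to the threshold. It was lost with DESeq2 (adjusted p = 0.00137), with limma voom (adjusted p = 0.00126), with library-size scaling only (adjusted p = 0.00142), without DMSO replicate 1 (adjusted p = 0.00204, edgeR) and without SGSS05-NS replicate 2 (adjusted p = 0.00288, edgeR). Over all settings with every library, the adjusted p of RNY3 ranged from 2.1e-08 to 0.00142, and its log2 fold change from -1.65 to -1.55.

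From the fragments alone, the treated level of RNY1 was 0.329 times that of DMSO (exact binomial 95% interval 0.256 to 0.418), and that of RNY3 was 0.326 times (0.227 to 0.46). The point estimates of the pair were therefore close and the intervals overlapped. Such intervals pool the 2 libraries of each group, so they describe counting error alone and leave out the spread between libraries. Amplified fragments need not come from separate molecules, so even the counting error may be larger.

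No fragment was counted on the opposite strand of RNY1, RNY3 or VTRNA1-1 in any library. RNeasy columns and the size selection of the library retain RNAs of this length poorly, so the levels are those of the RNA that was retained, and whether that retention differed between the groups was not tested. In bulk RNA scaled to a common total, fewer cells of a type, less of an RNA per cell and more of other RNA cannot be told apart.

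Most other annotated Y RNA genes were too rare to be tested. The functional genes RNY4 (3, 0, 1 and 0 fragments in DMSO 1, DMSO 2, SGSS05-NS 1 and SGSS05-NS 2) and RNY5 (1, 2, 3 and 1) were among them. The 52 annotated RNY copies with a pseudogene suffix summed to 1.99 and 2.27 CPM with DMSO and 1.26 and 1.27 CPM with SGSS05-NS. Only 1 of them was tested, with a log2 fold change of -1.39, and it was not called. The 803 genes annotated only as Y_RNA summed to 18.5 and 19.5 CPM with DMSO and 23.9 and 24.5 CPM with SGSS05-NS. Of these, 9 were tested, with a median log2 fold change of 0.51, and 1 was called lower. STAR leaves out fragments with several possible origins, so identical parts of Y RNA copies are missing from all of these values.

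RPPH1, the RNase P RNA, had 257408 and 232823 fragments with DMSO and 229363 and 356812 with SGSS05-NS, on a row that spans chr14:20811207-20811844 on the minus strand (638 bases, longer than the RNA). The levels were 10260 and 9965 CPM with DMSO and 10330 and 15170 CPM with SGSS05-NS. The first treated library was thus next to the DMSO libraries, and only the other was high. The treated libraries differed by 1.47 times, against 1.03 times within DMSO. The DMSO mean of 10110 CPM (± 208 SD, n = 2) stood beside a treated mean of 12750 CPM (± 3420 SD, n = 2). The log2 fold change of 0.33 ± 0.15 (SE) was not called (edgeR adjusted p = 0.0931). It ranged from 0.032 without SGSS05-NS replicate 2 to 0.58 without SGSS05-NS replicate 1, and the latter fit, in which the remaining treated library is assumed to vary like the DMSO libraries, called it (adjusted p = 3.5e-07, edgeR). It was also called when genes with low counts were kept (adjusted p = 7.7e-07, edgeR).

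RN7SL2, the 7SL RNA gene, had 330670 and 327489 fragments with DMSO and 334084 and 446586 with SGSS05-NS. In CPM these were 13180 and 14020 with DMSO and 15050 and 18990 with SGSS05-NS, so both treated libraries were above both controls, as for 37.8% of all genes tested, and the second stood apart. The DMSO mean of 13600 CPM (± 593 SD, n = 2) stood beside a treated mean of 17020 CPM (± 2782 SD, n = 2). The log2 fold change was 0.32 ± 0.13 (SE) and was not called (edgeR adjusted p = 0.0549). It ranged from 0.15 without SGSS05-NS replicate 2 to 0.47 without SGSS05-NS replicate 1. The latter fit called it (adjusted p = 4.7e-06, edgeR), as did the fit that kept genes with low counts (adjusted p = 4.8e-07, edgeR).

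Near-identical copies make the level of RN7SL2 uncertain, since fragments common to several 7SL genes are left out of it. RN7SL3, another annotated 7SL gene, had 339 and 276 CPM with DMSO and 358 and 382 CPM with SGSS05-NS (log2 fold change 0.27, SE 0.11, edgeR adjusted p = 0.0645). All 846 other genes with an RN7SL symbol, RN7SL3 included, summed to 549 and 792 CPM with DMSO and 559 and 618 CPM with SGSS05-NS, of which 383 had any count. Among the 29 that were tested, 0 were called in either direction by edgeR's test.

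VTRNA1-1 had 0 and 1 fragments with DMSO and 4 and 2 with SGSS05-NS, and did not pass the filter on low counts. From these few fragments the treated level was 6.36 times that of DMSO, and the exact binomial 95% interval of 0.772 to 292 includes no change. When genes with low counts were kept, the adjusted p was 0.284 (edgeR). A change in this gene was not detectable at this depth. The vault RNA gene VTRNA1-3 had more fragments, 44 and 31 with DMSO and 49 and 32 with SGSS05-NS, and its groups overlapped (log2 fold change 0.20, SE 0.30, edgeR adjusted p = 0.618). VTRNA1-2 had 2 fragments in SGSS05-NS replicate 1 and 0 elsewhere, and VTRNA2-1 had 0 in every library.

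Per length, the order of the levels was the same in both groups. RN7SL2 was highest, with 44370 and 47200 CPM per kb of annotated exon under DMSO, against 50680 and 63930 under SGSS05-NS. RPPH1 followed at 16080 and 15620 CPM per kb with DMSO and 16200 and 23780 with SGSS05-NS, a value that is too low because its row is longer than the RNA. RNY1 had 50.8 and 54.2 CPM per kb with DMSO and 18.7 and 15.8 with SGSS05-NS. For RNY3 these levels were 33.2 and 24.3 CPM per kb under DMSO, against 10.2 and 8.75 under SGSS05-NS. VTRNA1-1 was last and did not pass 1.82 CPM per kb in any library. Each of these neighbours in the order differed beyond the spread of the libraries in both groups, although short RNAs are retained unevenly and the order need not be that of the cell.

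Together the 5 genes held 2.32% and 2.37% of all gene counts under DMSO, and 2.63% and 3.37% under SGSS05-NS. The Wilson 95% intervals of these shares, which cover counting error only, ran from 2.31% to 2.33%, 2.36% to 2.37%, 2.62% to 2.63% and 3.36% to 3.37%. The DMSO mean was 2.34% (± 0.0324 SD, n = 2), and the treated mean was 3.00% (± 0.524 SD, n = 2). The difference of 0.653 percentage points gave p = 0.333 in an exact two-sided permutation test over libraries, which is the smallest p that 2 libraries against 2 allow. It was 1.02 points without SGSS05-NS replicate 1 and 0.282 points without SGSS05-NS replicate 2. Almost all of the share was RPPH1, with 1.02%, 0.983%, 1.07% and 1.495% in DMSO 1, DMSO 2, SGSS05-NS 1 and SGSS05-NS 2, and RN7SL2, with 1.30%, 1.38%, 1.56% and 1.87%. RNY1 held at most 0.000604% and RNY3 at most 0.000335%.

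Of the 2282 identifiers with no entry in the annotation, 2 held more than 0.5% of the gene counts. No source used here pairs them with a symbol, so they were not counted among the Pol III genes. Whether they are the 2 listed genes that could not be tied to a row, RMRP and RN7SL1, could not be settled from these sources. With both identifiers added, the share of the gene counts was 5.48% and 5.30% under DMSO, and 5.93% and 7.37% under SGSS05-NS. ENSG00000258486 had 23680 and 21420 CPM with DMSO and 24730 and 31740 CPM with SGSS05-NS (log2 fold change 0.32, SE 0.14, edgeR adjusted p = 0.0679), with 2.34%, 2.11%, 2.56% and 3.13% of the gene counts in the same order of libraries. ENSG00000269900 had 8251 and 8335 CPM with DMSO and 7207 and 8889 CPM with SGSS05-NS, so the groups overlapped (log2 fold change -0.043, standard error 0.12, adjusted p = 0.796 in edgeR's quasi-likelihood test). It held 0.817%, 0.822%, 0.745% and 0.876% of the gene counts.

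RN7SK, the Pol III RNA that holds back the elongation factor P-TEFb, was the gene with the highest count, with 5.01% and 4.96% of the gene counts with DMSO and 4.93% and 5.79% with SGSS05-NS. Its groups overlapped (log2 fold change 0.08, SE 0.13, edgeR adjusted p = 0.66). The second SGSS05-NS library was higher than the first by 1.47 times for RPPH1, 1.26 times for RN7SL2 and 1.23 times for RN7SK. The same ratio was 1.28 for ENSG00000258486 and 1.23 for ENSG00000269900. For the other tested Pol III RNA genes it was 1.07 (RN7SL3), 1.075 (RNU6-8), 0.862 (RNU6-2 and RNY3), 0.843 (RNY1) and 0.616 (VTRNA1-3). Of all genes tested, 16.4% had a ratio of at least 1.2 between these libraries, and over all of them the median lay close to equality.

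Among the other Pol III RNA genes, 14 were listed and 5 had enough counts for the test, and 0 were called by edgeR's quasi-likelihood test, its likelihood ratio test, DESeq2 or limma voom, with 1 at an unadjusted p under 0.05. Their median log2 fold change was 0.20. The U6 spliceosomal RNA gene RNU6-8 had 2.31 and 2.74 CPM with DMSO and 1.94 and 2.08 CPM with SGSS05-NS (log2 fold change -0.33, standard error 0.24). RNU6-2 had 0.757 and 0.556 CPM with DMSO and 1.04 and 0.893 CPM with SGSS05-NS (log2 fold change 0.54, standard error 0.34). Neither was called. RNU6-1, RNU6-7, RNU6-9 and BCYRN1 had at most 15 fragments per library, and RNU6ATAC had 0.

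Calls among short structured RNAs made by Pol II went in both directions. Of 16 listed, 10 were tested. Of these, 2 were called higher, beside 6.37% of all genes tested, and 2 lower, beside 8.14%. Their median log2 fold change was 0.20. The U4 spliceosomal RNA genes fell, RNU4-1 from 56.9 and 74.5 CPM to 24.7 and 29.9 CPM (log2 fold change -1.27, SE 0.14, edgeR adjusted p = 2.3e-05) and RNU4-2 from 92.5 and 95.4 CPM to 38.2 and 46.3 CPM (-1.15, SE 0.11, edgeR adjusted p = 7.8e-06). The U1 genes rose, RNU1-1 from 5.74 and 5.18 CPM to 21.4 and 15.4 CPM (1.75, SE 0.18, edgeR adjusted p = 1.4e-05) and RNU1-2 from 1.63 and 0.942 CPM to 5.63 and 4.38 CPM (1.94, SE 0.27, edgeR adjusted p = 1.6e-04). U1 and U4 have many near-identical copies, so these counts are uncertain. The telomerase RNA TERC had 99.4 and 95.5 CPM with DMSO and 101 and 133 CPM with SGSS05-NS and was not called, with the second treated library high as for RPPH1.

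**Figure D2:**
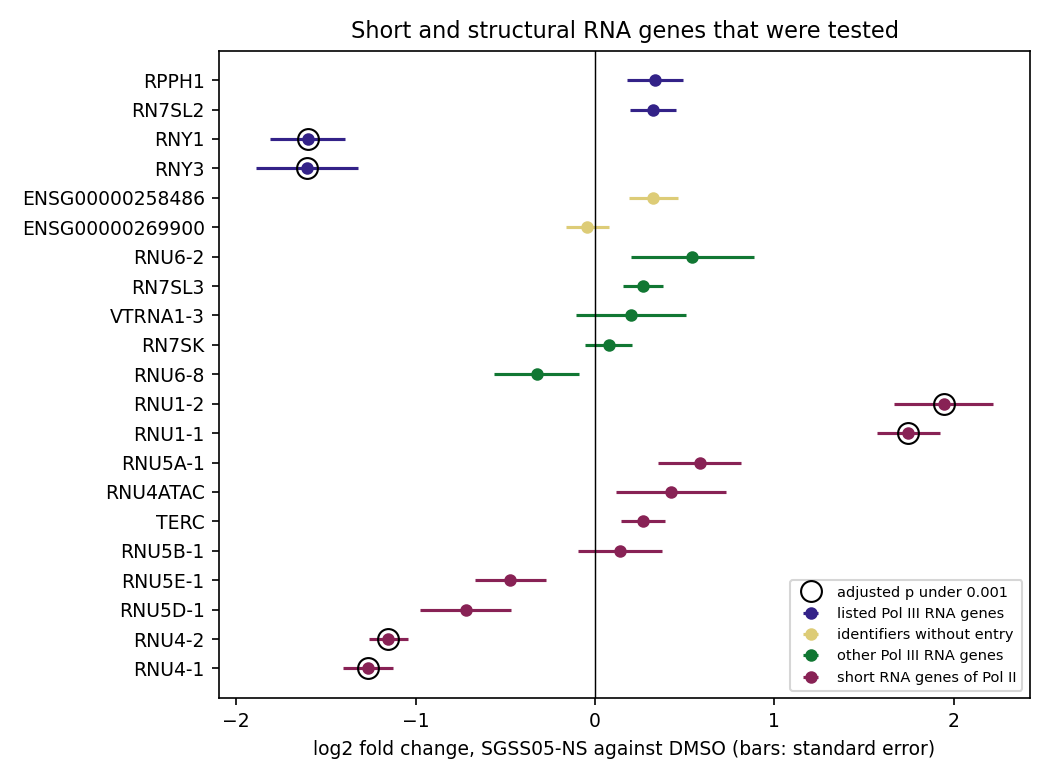
Log2 fold change of SGSS05-NS against DMSO (horizontal axis) for the tested Pol III RNA genes, the 2 identifiers without an entry and short RNA genes of Pol II. Bars are standard errors and open circles mark an adjusted p under 0.001. RNY1 and RNY3 lie near -1.6, RPPH1 and RN7SL2 near 0.3, and the U1 and U4 genes lie on opposite sides of 0.

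Most genes of the Pol III machinery were not called. Of 32 genes for Pol III subunits and general factors, all were tested, 1 was called higher, beside 6.37% of all genes tested, and 2 lower, beside 8.14%, and the median log2 fold change was -0.09. BRF2, the factor that Pol III uses at genes with upstream control elements, rose from 16.2 and 16.4 CPM to 35.4 and 45.8 CPM (log2 fold change 1.31, SE 0.13, edgeR adjusted p = 1.4e-05). POLR3B, the second-largest Pol III subunit and a part of its active centre, fell from 30.4 and 30.0 CPM to 14.2 and 11.9 CPM (-1.21, SE 0.12, edgeR adjusted p = 1.6e-05). GTF3C1, the TFIIIC subunit that contacts the B box, fell from 247 and 246 CPM to 179 and 170 CPM (-0.50, SE 0.09, edgeR adjusted p = 9.98e-04), just inside the threshold. The higher calls in this list numbered 4 with the likelihood ratio test, which the study used, 4 with no filter on low counts, 4 with the replicate number as a block, 4 without SGSS05-NS replicate 1, and 2 with DESeq2 or without DMSO replicate 2. Of the 2 lower calls, 1 was lost with library size only, with at least 10 counts in every library, and without DMSO replicate 1, DMSO replicate 2 or SGSS05-NS replicate 2. The catalytic subunit POLR3A had 123 and 132 CPM with DMSO and 123 and 110 CPM with SGSS05-NS and was not called (log2 fold change -0.13, adjusted p = 0.314, edgeR). The repressor MAF1 (log2 fold change 0.21, adjusted p = 0.0887) and BRF1 (-0.17, adjusted p = 0.166), which serves genes with internal elements, were not called either.

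Of 11 proteins of RNase P and RNase MRP, 10 were tested and 0 were called in either direction by any of the 4 tools, with 4 higher and 2 lower at an unadjusted p under 0.05 in edgeR's test and a median log2 fold change of 0.15. The fits without DMSO replicate 2 and without SGSS05-NS replicate 1 each called 1 lower. RPP21 was at 0 in every library. The smallest p-values were those of RPP14 (log2 fold change 0.39, adjusted p = 0.0056), RPP40 (0.51, adjusted p = 0.0205) and RPP30 (0.33, adjusted p = 0.0242), all from edgeR's test.

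Of 8 genes for signal recognition particle proteins and its receptor, 1 was called lower, beside 8.14% of all genes tested. None was called higher, beside 6.37%, and the median log2 fold change was -0.02. SRP9, which binds the Alu end of 7SL RNA, fell from 466 and 465 CPM to 274 and 303 CPM (-0.69, SE 0.10, edgeR adjusted p = 1.3e-04). Its binding partner SRP14 had 200.3 and 194 CPM with DMSO and 178 and 183 CPM with SGSS05-NS and was not called (-0.13, adjusted p = 0.265, edgeR). SRP68 (0.53, adjusted p = 0.00345, edgeR) and the receptor subunit SRPRB (0.43, adjusted p = 0.00493, edgeR) were not called. The likelihood ratio test and DESeq2 each called 1 gene of this list higher, limma voom called 0, and 3 were higher at an unadjusted p under 0.05.

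None of the 5 genes for Y RNA binding proteins was called in either direction by any of the 4 tools, with 2 higher and 0 lower at an unadjusted p under 0.05 in edgeR's test. RO60, the protein of the Ro particle, had 227 and 230 CPM with DMSO and 236 and 225 CPM with SGSS05-NS, so its groups overlapped (log2 fold change 0.01, SE 0.09, edgeR adjusted p = 0.928). SSB, which encodes La, the protein that binds the uridine tail of new Pol III RNAs, had 138 and 140 CPM with DMSO and 149 and 151 CPM with SGSS05-NS (0.11, SE 0.09, edgeR adjusted p = 0.324). IFIT5 (0.30, adjusted p = 0.0294) and MOV10 (0.30, adjusted p = 0.0434) had the smallest p-values.

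Of the 3 vault protein genes, TEP1, which is shared with telomerase, rose from 4.66 and 4.28 CPM to 11.2 and 8.55 CPM (log2 fold change 1.14, SE 0.18, edgeR adjusted p = 4.1e-04), a call that was lost without SGSS05-NS replicate 1. The major vault protein MVP had 2.15 and 1.97 CPM with DMSO and 3.65 and 3.66 CPM with SGSS05-NS (0.82, adjusted p = 0.00929, edgeR). PARP4 had 67.3 and 65.2 CPM with DMSO and 49.4 and 51.1 CPM with SGSS05-NS (-0.40, adjusted p = 0.00422, edgeR). Neither was called. Thus 1 of the 3 was called higher, beside 6.37% of all genes tested, and 0 lower, beside 8.14%.

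**Figure D3:**
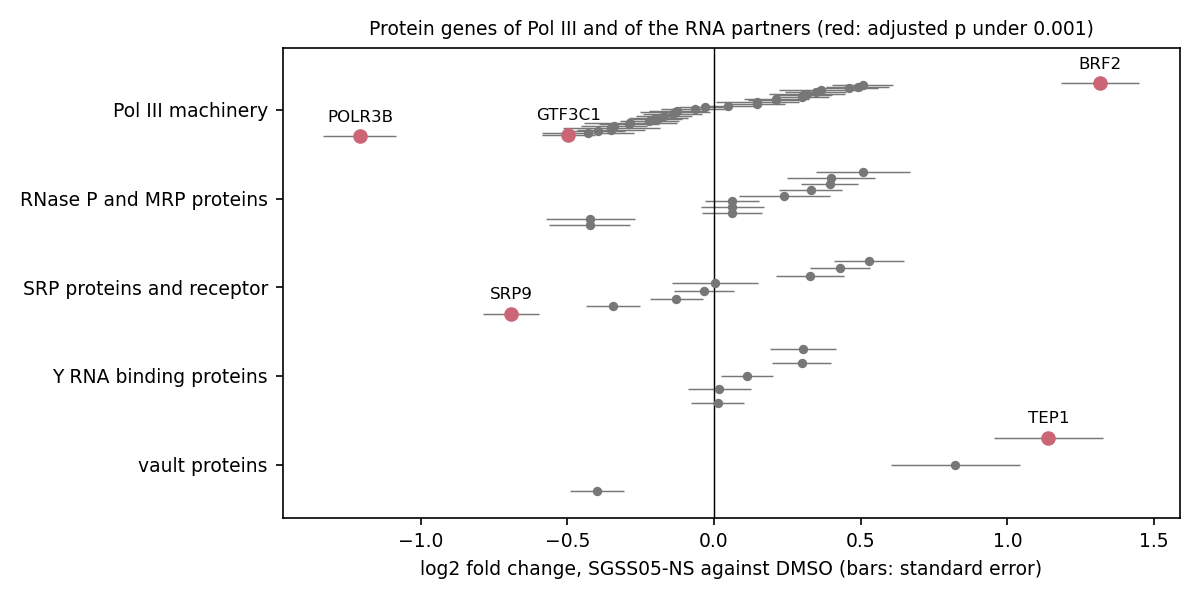
Log2 fold change of SGSS05-NS against DMSO (horizontal axis) for the protein genes of the Pol III machinery and of the particles that hold the RNAs, 1 point per gene with its standard error, in rows by list. Red points with names had an adjusted p under 0.001, which were BRF2 and TEP1 on the higher side and POLR3B, GTF3C1 and SRP9 on the lower side.

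Of the genes that start within 2 kb of the 5 Pol III genes or overlap them, 1 had a row, PARP2, a poly(ADP-ribose) polymerase gene of DNA repair. It starts 70 bases from the start of the RPPH1 row on the opposite strand and overlaps it by 71 bases. PARP2 had 30.4 and 30.3 CPM with DMSO and 34.8 and 34.1 CPM with SGSS05-NS and was not called (log2 fold change 0.18, SE 0.10, edgeR adjusted p = 0.156). Unlike RPPH1, its treated libraries lay close together.

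The 5 genes whose centred log2 CPM over the 4 libraries lay nearest to that of the summed Pol III genes, among 11412 tested genes whose mean log2 CPM was 2 or more, were LLGL2, RNF207, MYNN, PPP1R2 and TXNRD3. Their Euclidean distances were between 0.0464 and 0.0555, and their log2 fold changes between 0.28 and 0.36. The sum is nearly all RPPH1 and RN7SL2, and with 4 libraries this likeness is a description only.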

How the data were processed

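RNA of 4 SY5Y libraries was analysed (2 DMSO, 2 SGSS05-NS, from the sample labels). According to the study's methods and the submitters' processing notes, total RNA was depleted of ribosomal RNA, prepared as stranded libraries and sequenced as read pairs, trimmed with Trimmomatic 0.30 and aligned to hg19 with STAR 2.4.2a and GENCODE genes (the labels name a kit without these details). The authors deposited STAR's raw counts of fragments per gene, without normalization, once for both strands together and once for each strand. Pairs that map to several places are not counted. The reverse-strand column was used, as the other strand held between 4.64% and 5.05% of stranded counts. The summary rows at the top of each file were left out.

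Identifiers were matched without version to GENCODE release 44 on GRCh37 (55538 matched, 2282 with 4.52% of the counts did not). RPPH1 was located by its RefSeq interval (GRCh38) inside the exon's GRCh38 location as the annotation records it. RMRP carries an identifier there that is not a row, and RN7SL1 has no entry.

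edgeR 4.0.16 in R 4.3.3 was run with filterByExpr (16468 genes), TMM scaling, the quasi-likelihood test and Benjamini-Hochberg adjustment at 0.001. The standard error is the log2 fold change divided by the root of F. DESeq2 1.42.0 and limma 3.58.1 were alternatives, and the test was checked on simulated counts. Libraries of a group differed beyond counting noise (chi-square divided by its degrees of freedom 8.76 for DMSO and 11.8 for SGSS05-NS). The Pol III genes, lists, marker genes and tests were chosen with earlier results of these data known, and the lists were written from general knowledge. Named were all Pol III genes of the list, from each other list the 3 smallest p-values and every call, neighbours within 2 kb, copies as sums, and the 5 genes nearest in pattern. Other list genes (such as RN7SK, TERC, POLR3A, MAF1, BRF1, SRP14 and RO60) and the 2 identifiers without an entry were named after their values were seen. Some sequences are not reported here.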

Additional observations from a re-analysis of the deposited data

How the results depend on the processing

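With 2 libraries per group, the spread of each gene is estimated largely from other genes, and RNY3 and VTRNA1-1 are limited by their few fragments. RNY1 kept its direction and its call in every setting. Log2 fold changes that crossed the threshold were those of RPPH1 (0.31) and RN7SL2 (0.30) with no filter on low counts, called higher, and of RNY3 with DESeq2 (-1.61), limma voom (-1.58) and library size only (-1.57), no longer called. RNY3 was also not called (-1.55) when RN7SK, the Pol III genes and the 2 identifiers without an entry were taken out of the library sizes, a setting chosen after seeing the data, in which ENSG00000269900 reached 0.013. With each library left out in turn, log2 fold changes ranged from 0.032 to 0.58 for RPPH1, 0.15 to 0.47 for RN7SL2, -1.83 to -1.37 for RNY3, -0.20 to 0.093 for ENSG00000269900 and -0.082 to 0.21 for RN7SK, and these last 2 changed sign. Of the Pol III genes, 2 were called higher with no filter and between 0 and 2 with a library left out, and 1 lower with DESeq2, limma voom, library size only and the setting chosen later, and between 1 and 2 with a library left out. In the other lists together, markers left out, 4 were called higher, beside 6.37% of all genes tested, and 5 lower, beside 8.14%. These lists hold the protein genes (32, 10, 8, 5 and 3 tested, in the order above). They also hold the other Pol III RNA genes (5 tested) and the short RNA genes of Pol II (10 tested). The last of these gave 2 of the higher and 2 of the lower calls. The higher ones numbered 8 with the likelihood ratio test and 8 with no filter. At an adjusted p under 0.05 there were 20 higher, beside 22.6% of all genes tested, and 15 lower, beside 23.7%. Of all genes, against 1049 higher and 1341 lower, 2022 and 2267 were called with the likelihood ratio test, 2034 and 2570 with no filter, and 3728 and 3903 at 0.05. The share of the Pol III genes differed by 1.26 percentage points with the 2 identifiers included, also chosen later, against 0.653, and with a library left out by between 0.282 and 1.02. The causes of these shifts were not tested. VTRNA1-1 had a fitted value only with no filter.

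Replicate numbers are shared between the groups. The replicate differences of the groups were nearly uncorrelated (0.05 over 16468 genes). Counting noise in rare genes lowers such a correlation, so whether same-numbered libraries were prepared as pairs is not settled by it. With the replicate number as a block, 1759 genes were called higher and 2007 lower in all, with 8 higher and 5 lower in those other lists together, and the calls of RNY1 and RNY3 were the same.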
